A study of Mus musculus with 2 samples.

Results

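The 9 genes described here encode proteins that carry organic anions across the membranes of liver cells: the uptake carriers *Slco1a1*, *Slco1a4* and *Slco2b1*, the *Slc22a27*, *Slc22a28* and *Slc22a30* members of the organic anion transporter family, and the efflux pumps *Abcc2*, *Abcc3* and *Abcc4*. They were matched by symbol among the 32285 genes of the count tables, and all 9 were present. They were chosen by their measured levels in hepatocyte nuclei of the study's libraries, with the difference between the libraries in view, so that this difference is given below as a description and supports nothing further.

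Livers came from male C57BL6/J mice that had received a MASH diet for 5 months from the age of 10 to 12 weeks. MASH stands for metabolic dysfunction-associated steatohepatitis, and the diet supplied 40% of its energy as fat and 20% as fructose, with 2% cholesterol. Nuclei were sorted and sequenced by 3′ snRNA-seq in 2 libraries. One was labelled Flox (genotype *Themis* flox/flox, with WT in its title) and the other HKO (genotype *Themis* Alb-Cre; the albumin promoter restricts this Cre to hepatocytes), and each pooled livers of several mice of a genotype. With 1 library per genotype there are no replicates, so that no test, p-value or standard error is given, and the genotype cannot be told apart from any other difference between the pools. Throughout, the first value of a pair is that of the library labelled Flox, CPM scales the UMIs of a gene by the total UMIs of the nuclei it was counted in, and intervals are 95% intervals that cover counting error only.

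The libraries held 9363 and 10748 nuclei with 58171337 and 40475938 UMIs. Nuclei with at least 3000 UMIs and with hepatocyte marker genes at 0.5% or more of UMIs were taken as hepatocytes, which gave 5959 nuclei with a median of 7604 UMIs and 4170 nuclei with a median of 6213 UMIs. Hepatocyte markers took 1.59% and 1.34% of the UMIs of these nuclei, against 0.132% to 0.318% in the 5 other cell types used below. *Themis* itself went against the label: it stood at 160 CPM in hepatocyte nuclei of the library labelled Flox and at 255 CPM in those of the library labelled HKO (ratio 1.60, 1.55 to 1.65). The sources used here do not give the exons that were to be deleted, and 3′ counts outside a deleted part do not check it. A UMI from a Y-linked gene was found in 96.9% and 95.9% of hepatocyte nuclei and one from *Xist* in 0.789% and 1.20%, and the libraries shared 27 barcodes. Nuclei with at least 0.1% of UMIs from *Glul* and *Slc1a2*, which mark hepatocytes around the central vein, were called pericentral. They were 1058 and 647 nuclei (17.8% and 15.5%). The other 4901 and 3523 were split into 3 equal parts by the share of periportal marker UMIs. *Pck1* gave most of these UMIs (119881 and 87089, against 9570 and 7481 of the next, *Sds*). The parts were ranked within each library and need not match between the libraries. Near the zone limit, between 0.08% and 0.12%, lay 79 and 47 nuclei. Of pericentral genes that the rule did not use, 10 of 10 and 8 of the 9 with enough UMIs were past 2-fold higher in pericentral nuclei, while 10 of 10 periportal genes were past 2-fold lower in both libraries.

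Hepatocytes take up bile acids, bilirubin, steroid conjugates and drugs from the blood through carriers of the basolateral membrane, conjugate many of them, and pump the products into bile or back into blood. Carriers of the *Slco* family (organic anion transporting polypeptides) and of the *Slc22a* family serve uptake, whereas the ATP-driven pumps of the *Abcc* family serve export: *Abcc2* (MRP2) sits in the canalicular membrane and moves conjugated bilirubin into bile, and *Abcc3* (MRP3) and *Abcc4* (MRP4) sit in the basolateral membrane and return conjugates and bile acids to blood. Several of these genes are known to differ between male and female mouse liver, *Slco1a1* being higher in males and *Slco1a4* higher in females.

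Of the uptake carriers, 5 lie in clusters of related genes. *Slco1a1* (chr6:141907282-141946962, GRCm38, minus strand) and *Slco1a4* (chr6:141805440-141856199, minus strand) are neighbours with 51.1 kb between them. *Slc22a27* (chr19:7864388-7966027), *Slc22a28* (chr19:8062209-8131982) and *Slc22a30* (chr19:8335371-8405111) all lie on the minus strand, with 96.2 kb from the first to the second and 203 kb from the second to the third. *Abcc2* is on the plus strand of the same chromosome (chr19:43782192-43840740), 35377 kb away from *Slc22a30*. *Slco2b1* (chr7:99657804-99711340, minus strand), *Abcc3* (chr11:94343295-94392997, minus strand) and *Abcc4* (chr14:118482692-118706219, minus strand) lie on further chromosomes.

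The 250 bases upstream of the RefSeq start (GRCm38.p6) are shown for the neighbouring pair that differed in opposite directions between the libraries and for the *Slc22a* cluster. RefSeq windows were at hand for 8 of the 9 genes, in 11 windows. For *Slco1a1* and *Slco1a4* the best ungapped alignment of these stretches held 79 identical bases of 222 (35.6%). Capitals in *Slco1a1* mark TATAA on either strand, with matches that overlap, a motif found in 22.8% of all 32851 promoter windows of this length and in this 1 of the 11 member windows. One of the matches lay 31 to 27 bases before the start. The first sequence is chr6:141946963-141947212 and the second chr6:141856221-141856470, both of the minus strand and written 5′ to 3′.
Slco1a1: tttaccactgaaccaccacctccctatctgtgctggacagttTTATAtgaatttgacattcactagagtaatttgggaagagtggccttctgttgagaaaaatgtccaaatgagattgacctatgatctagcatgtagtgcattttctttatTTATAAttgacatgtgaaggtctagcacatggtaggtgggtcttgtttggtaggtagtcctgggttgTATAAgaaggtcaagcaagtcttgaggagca
Slco1a4: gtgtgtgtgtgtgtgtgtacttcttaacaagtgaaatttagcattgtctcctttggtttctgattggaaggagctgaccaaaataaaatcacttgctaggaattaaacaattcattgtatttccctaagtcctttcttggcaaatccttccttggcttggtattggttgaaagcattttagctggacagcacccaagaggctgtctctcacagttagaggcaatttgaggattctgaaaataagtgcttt

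*Slc22a28* and *Slc22a30*, in contrast, have nearly the same promoter stretch: 238 of 244 aligned bases (97.5%) were identical after a shift of 6 bases, and capitals mark the 6 bases that differ. They are printed because their transcripts differed in zone and in ratio between the libraries, as described below. The stretches are chr19:8131983-8132232 and chr19:8405106-8405355, minus strand.
Slc22a28: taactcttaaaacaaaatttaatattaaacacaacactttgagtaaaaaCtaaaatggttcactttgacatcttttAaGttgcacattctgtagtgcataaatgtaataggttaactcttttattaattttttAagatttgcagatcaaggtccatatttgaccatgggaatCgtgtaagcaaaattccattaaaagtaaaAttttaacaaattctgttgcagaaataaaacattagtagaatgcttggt
Slc22a30: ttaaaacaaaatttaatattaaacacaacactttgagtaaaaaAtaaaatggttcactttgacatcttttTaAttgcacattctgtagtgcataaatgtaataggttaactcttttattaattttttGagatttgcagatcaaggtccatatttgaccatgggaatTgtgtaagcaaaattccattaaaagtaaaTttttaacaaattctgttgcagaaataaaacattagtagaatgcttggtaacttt

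The stretch of *Slc22a27* (chr19:7966028-7966277, minus strand) is unlike both, with at most 79 of 239 bases identical (33.1%) to that of *Slc22a28*. Capitals mark TGACNNNGC, the core of the antioxidant response element, found 2 times here and, on either strand, in 10.2% of all windows and in 4 of the 11 member windows. The others were 1 window of *Abcc2* and both of *Abcc4*. Such a match is a description of letters and shows no binding.
Slc22a27: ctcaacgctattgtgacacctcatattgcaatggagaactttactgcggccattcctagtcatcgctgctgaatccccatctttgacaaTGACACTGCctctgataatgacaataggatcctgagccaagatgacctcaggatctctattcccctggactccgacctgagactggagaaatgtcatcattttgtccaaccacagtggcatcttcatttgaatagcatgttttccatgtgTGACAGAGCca

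Among the carriers, *Slco1a1* (OATP1A1, which takes up bile acids and steroid sulfates) had 323.5 and 43.9 CPM in hepatocyte nuclei (15821 and 1244 UMIs). It was 7.37-fold lower (6.96 to 7.81) in the library labelled HKO, the lowest ratio among the 9 genes. In pericentral nuclei the levels were 522 and 124 CPM, and in the other hepatocytes 288.5 and 30.8 CPM. The gene was thus pericentral in both libraries, 1.81-fold (1.75 to 1.88) in that labelled Flox and 4.03-fold (3.59 to 4.52) in that labelled HKO. Across the 3 parts of the other hepatocytes, from the lowest to the highest share of periportal markers, *Slco1a1* ran from 371 over 284 to 197 CPM in the library labelled Flox. In that labelled HKO it ran from 56.6 over 32.6 to 5.88 CPM, where 50 UMIs remained. The difference between the libraries therefore widened from 4.21-fold lower (3.83 to 4.63) in pericentral nuclei to 33.5-fold lower (25.4 to 45.3) in each library's most periportal part.

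*Slco1a4* (OATP1A4), the neighbour of *Slco1a1* and a carrier of bile acids and cardiac glycosides, went the other way. It had 54.7 and 305 CPM (2676 and 8655 UMIs), and the ratio was 5.58 (5.34 to 5.83). Its zonation was shallow: pericentral nuclei had 65.3 and 394 CPM and the other hepatocytes 52.9 and 291 CPM, ratios of 1.23 (1.12 to 1.36) and 1.36 (1.28 to 1.43) between the zones. In the library labelled Flox the most periportal part, at 65.2 CPM, was level with pericentral nuclei (ratio 1.001, 0.893 to 1.12). The ratio between the libraries was 6.04 (5.45 to 6.71) in pericentral nuclei and 4.45 (4.11 to 4.82) in the most periportal part. The difference was thus seen in pericentral nuclei and in all 3 parts of the other hepatocytes.

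*Slco2b1* (OATP2B1, a carrier of steroid sulfates and statins) differed little, with 63.1 and 69.0 CPM and a ratio of 1.09 (1.03 to 1.16). Pericentral nuclei had 57.5 and 74.8 CPM (ratio 1.30, 1.12 to 1.51) and the other hepatocytes 64.1 and 68.1 CPM (1.06, 0.998 to 1.13). Its zone ratios were 0.896 (0.807 to 0.993) and 1.10 (0.968 to 1.24), so that no more than a slight gradient was detectable. Exons of *Slco2b1* are overlapped by 2 antisense genes, *Gm15635* and *Gm34280*.

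**Figure D1:**
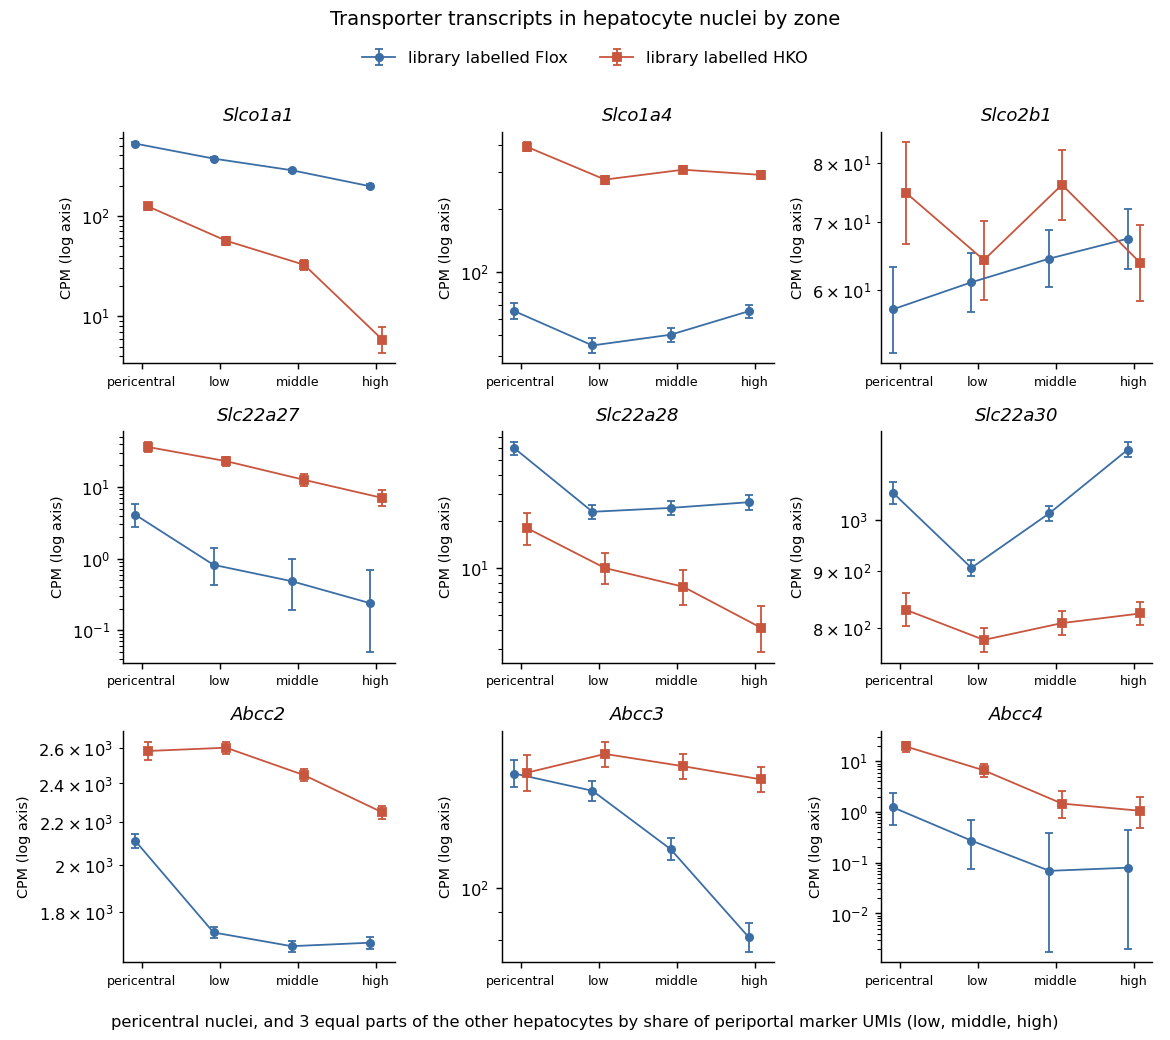
Level of each of the 9 genes in CPM (log axis, with its own range in each panel) in pericentral nuclei and in the low, middle and high part of the other hepatocytes by periportal marker share, for the library labelled Flox (blue circles) and that labelled HKO (red squares), with 95% Poisson intervals. *Slco1a1* is at 5.88 CPM in the high part of the library labelled HKO, and *Abcc3* is at 80.9 CPM there in the library labelled Flox and at 159 CPM in the other.

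The *Slc22a* genes of the chromosome 19 cluster belong to a rodent branch of the organic anion transporter family, and their substrates are less well known than those of the kidney members. *Slc22a27* was rare in the library labelled Flox, with 52 UMIs or 1.06 CPM, and had 484 UMIs or 17.1 CPM in the other, 16.1-fold higher (12.1 to 21.8). Pericentral nuclei held 4.10 and 36.3 CPM and the other hepatocytes 0.529 and 14.0 CPM. In the library labelled HKO the level went from 23.0 over 12.6 to 7.05 CPM along the 3 parts towards the portal side, and pericentral nuclei stood 2.60-fold (2.12 to 3.17) above the rest. For Flox-labelled nuclei the same zone ratio was 7.74 (4.32 to 14.1), from only 30 and 22 UMIs. Both libraries thus had the pericentral nuclei highest. Of the 50-base stretches in the last 500 bases of its transcript, where 3′ reads fall, 13.3% also occur in *Slc22a29*, so that the split between these genes is uncertain.

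*Slc22a28* had 29.8 and 8.68 CPM (1459 and 246 UMIs), and the library labelled HKO was 3.44-fold lower (3.001 to 3.95). It was pericentral in both: 59.4 against 24.6 CPM in the library labelled Flox (2.41-fold, 2.15 to 2.70) and 18.1 against 7.14 CPM in that labelled HKO (2.54-fold, 1.90 to 3.36). Among the other hepatocytes of the library labelled Flox it was level, with 23.1, 24.5 and 26.6 CPM from the low to the high part, whereas in that labelled HKO it went from 10.0 over 7.59 to 4.12 CPM. The difference between the libraries accordingly ran from 2.31-fold lower (1.80 to 2.99) in the low part to 6.47-fold lower (4.56 to 9.45) in the high part. Of the stretches in its last 500 bases 47.7% also occur in *Slc22a30*, although the last 500 bases of *Slc22a30* share none with another gene, and the level of *Slc22a28* is uncertain for this reason.

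*Slc22a30* was even across the zones, with 1025 and 809 CPM in hepatocyte nuclei, 1.27-fold lower (1.25 to 1.29) in the library labelled HKO. Its zone ratios were 1.04 (1.01 to 1.06) and 1.03 (0.994 to 1.07). Towards the portal side the parts had 907, 1015 and 1157 CPM in the library labelled Flox, while in that labelled HKO they had 781, 809 and 825 CPM. With 238 of 244 promoter bases alike, *Slc22a28* and *Slc22a30* thus had unlike zone ratios (2.41 and 1.04 in the library labelled Flox), with intervals that did not overlap.

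Of the pumps, *Abcc2* had 1753 and 2448 CPM (ratio 1.40, 1.38 to 1.41). Pericentral nuclei of the library labelled Flox stood above its other hepatocytes, 2110 against 1690 CPM (1.25-fold, 1.23 to 1.27), and those of the library labelled HKO by less, 2581 against 2426 CPM (1.06-fold, 1.04 to 1.09). The ratio between the libraries was 1.22 (1.19 to 1.25) in pericentral nuclei and 1.51 (1.48 to 1.54) in the low part of the other hepatocytes.

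*Abcc3* had 125 and 167 CPM (ratio 1.33, 1.28 to 1.39), and the difference was seen outside the pericentral nuclei. In pericentral nuclei the libraries had 163 CPM each, with a ratio of 1.004 (0.911 to 1.11). Towards the portal side the library labelled Flox went from 151 over 118 to 80.9 CPM, while that labelled HKO had 177, 168 and 159 CPM. The ratio between the libraries went from 1.17 (1.09 to 1.25) in the low part over 1.42 (1.33 to 1.53) to 1.96 (1.81 to 2.13) in the high part. Pericentral nuclei were 1.37-fold (1.29 to 1.46) above the other hepatocytes in the library labelled Flox and level with them in that labelled HKO (0.9745, 0.896 to 1.06).

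*Abcc4* had the fewest UMIs of the 9 genes, 15 and 150, which gave 0.307 CPM (0.172 to 0.506) and 5.29 CPM (4.48 to 6.21) and a ratio of 17.3 (10.1 to 31.6). Pericentral nuclei held 9 and 78 of these UMIs, or 1.23 and 19.6 CPM, against 0.144 and 2.95 CPM in the other hepatocytes. Pericentral nuclei of the library labelled HKO were 6.65-fold (4.76 to 9.29) above the others, and its level ran from 6.63 over 1.47 to 1.06 CPM towards the portal side. Endothelial nuclei carried more *Abcc4* (70.1 and 49.4 CPM), and the 12 endothelial markers summed to 27.7 and 35.3 CPM in hepatocyte nuclei, 0.187% and 0.293% of their level in endothelial nuclei, with none of them at 0. The 13 macrophage markers summed to 16.2 and 26.3 CPM, 0.185% and 0.383% of their own type's level, and likewise none was at 0. Hepatocyte nuclei with more of such markers (at least 3 UMIs and 0.05%) had been left out, which lowers these sums by selection. Where nuclei with markers of a further cell type were kept, the log2 ratio of *Abcc4* was 3.10 in place of 4.11. The part of such RNA in the result was not tested.

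Of the 9 genes, 5 were past 2-fold between the libraries in hepatocyte nuclei: *Slco1a4*, *Slc22a27* and *Abcc4* were higher and *Slco1a1* and *Slc22a28* were lower in nuclei labelled HKO. Of all 12239 genes with at least 100 UMIs over both libraries 6.77% were past 2-fold, 3.37% higher and 3.41% lower, and since this contrast chose the genes the counts are set side by side without being read. *Slc22a27* and *Abcc4* reached 100 UMIs through the library labelled HKO, as a gene so low in the other library must. In pericentral nuclei 4 of 8 were past 2-fold, with *Abcc4* under the minimum there, 2 higher and 2 lower (of all genes 4.23% were, 1.71% higher and 2.53% lower). In the other hepatocytes likewise 4 of 8 were, 2 in each direction (of all genes 6.76%, 3.3% higher and 3.47% lower). The members' median log2 ratio was 0.42 in hepatocyte nuclei, against -0.02 over all genes.

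**Figure D2:**
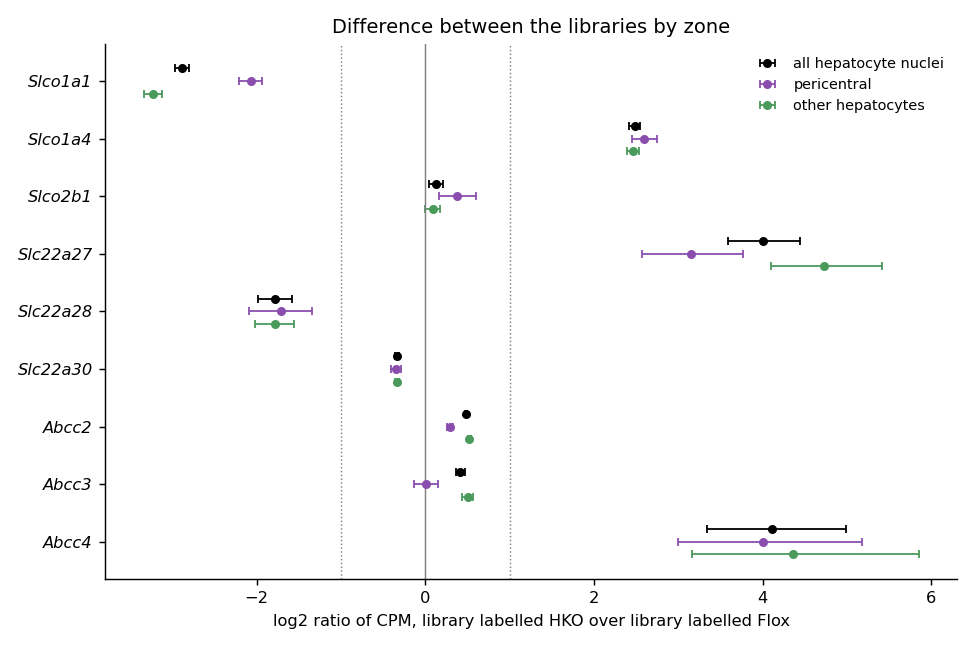
Log2 ratio of CPM, library labelled HKO over library labelled Flox, for each gene in all hepatocyte nuclei (black), pericentral nuclei (purple) and other hepatocytes (green), with 95% intervals from counting error; dotted lines mark 2-fold. *Slco1a1* is further below 0 outside the pericentral nuclei (-3.23) than in them (-2.07), and *Abcc3* is at 0.01 in pericentral nuclei and 0.50 outside.

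Between the zones, 1 of the 7 genes with enough UMIs was past 2-fold in the library labelled Flox, *Slc22a28*, which was higher in pericentral nuclei (of all genes 5.78%, 2.29% higher and 3.49% lower). HKO-labelled nuclei had 4 of 9 past 2-fold, all higher in pericentral nuclei: *Slco1a1*, *Slc22a27*, *Slc22a28* and *Abcc4* (of all genes 4.7%, 1.87% higher and 2.83% lower). *Slc22a27* and *Abcc4* were counted only there, since in the library labelled Flox they had 52 and 15 UMIs, under the minimum. Their zone ratios in the library labelled Flox were 7.74 (4.32 to 14.1) and 8.51 (2.71 to 29.1), so that the counts of the libraries are not alike. Between the high and the low part of the other hepatocytes, 0 of the 7 with enough UMIs were past 2-fold in the library labelled Flox (of all genes 4.12%, 1.97% higher and 2.15% lower). In the other library 3 of 8 were, *Slco1a1*, *Slc22a27* and *Slc22a28*, all lower in the high part (of all genes 3.31%, 1.21% higher and 2.1% lower). For the library labelled Flox *Slco1a1* (0.531, 0.507 to 0.557) and *Abcc3* (0.5355, 0.497 to 0.577) were also lower in the high part, short of 2-fold. *Slc22a27* (0.293, 0.0530 to 1.08) was under the UMI minimum there, and *Slc22a28* was level (1.15, 0.988 to 1.35). With hepatocytes of at least 5000 UMIs alone, *Slc22a28* was under 2-fold between the zones of the library labelled HKO (log2 0.88). The zone rule did not use these genes, but 1 library each allows no test of the zone difference between genotypes. The median log2 zone ratio of the members was 0.32 over 7 genes and 0.44 over 9, against -0.02 over all genes in both libraries. The second median includes *Slc22a27* (1.38) and *Abcc4* (2.73), which the first leaves out. The medians are thus not of the same genes and show no change in zonation between the libraries.

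The distribution over nuclei was taken at equal depth, with 3000 UMIs drawn at random from each hepatocyte nucleus. *Slco1a1* then had a UMI in 49.7% (48.5% to 51.0%) of nuclei of the library labelled Flox and in 9.14% (8.28% to 10.1%) of those of the library labelled HKO, against 70.5% and 13.8% before thinning. For *Slco1a4* the shares were 13.7% and 47.0% (27.2% and 64.9% before thinning), and 3 or more UMIs were found in 0.503% and 11.2%. *Slc22a30* was found in 93.2% and 86.6% of nuclei and *Abcc2* in 98.2% and 99.7%. *Abcc3* was found in 28.3% and 37.96%, *Slco2b1* in 17.1% and 18.4%, and *Slc22a28* in 8.56% and 2.35%. The rarest were *Slc22a27*, at 0.470% and 5.40%, and *Abcc4*, at 0.117% and 1.53%.

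Free RNA gives UMIs in nuclei that do not express a gene, and endothelial nuclei served as the comparison, with all nuclei thinned to 1000 UMIs (77 and 598 shallower endothelial nuclei left out, and no hepatocyte). At that depth *Slco1a1* was found in 25.5% and 3.98% of hepatocyte nuclei and in 2.26% and 0.358% of endothelial nuclei, and *Slco1a4* in 5.50% and 23.5% against 0.174% and 1.25%. The hepatocyte nuclei had median depths of 7604 and 6213 UMIs and the endothelial nuclei of 1361 and 988 UMIs. Both carriers were thus above the endothelial share in either library.

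In the library labelled HKO the 162 nuclei with 3 or more UMIs of *Slco1a1*, 3.89% of hepatocyte nuclei, carried 56.7% of them. For the library labelled Flox 2356 nuclei (39.5%) carried 83.3%. A fixed cut leaves fewer nuclei above it where the level is lower. At 3000 UMIs per nucleus the variance of its UMIs divided by their mean was 1.88 and 2.08. Of the 162 nuclei 41.4% were pericentral, against 11.9% of the 3596 nuclei without a UMI. *Slco1a4* stood at 452 CPM in the 162 nuclei and at 283 CPM in those without *Slco1a1*, *Slc22a27* at 40.1 and 14.9 CPM, and *Slc22a28* at 25.3 and 6.54 CPM. Outside the pericentral zone the order was alike: nuclei of the library labelled HKO with *Slco1a1* had 431 CPM of *Slco1a4*, and those without had 274 CPM. The corresponding *Slco1a4* values of the library labelled Flox were 52.8 and 53.1 CPM. These groups are cut from counts of *Slco1a1* that depend on depth (median 6800 UMIs in the 162 nuclei and 6176 in those at 0), and the nuclei are not replicates.

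**Figure D3:**
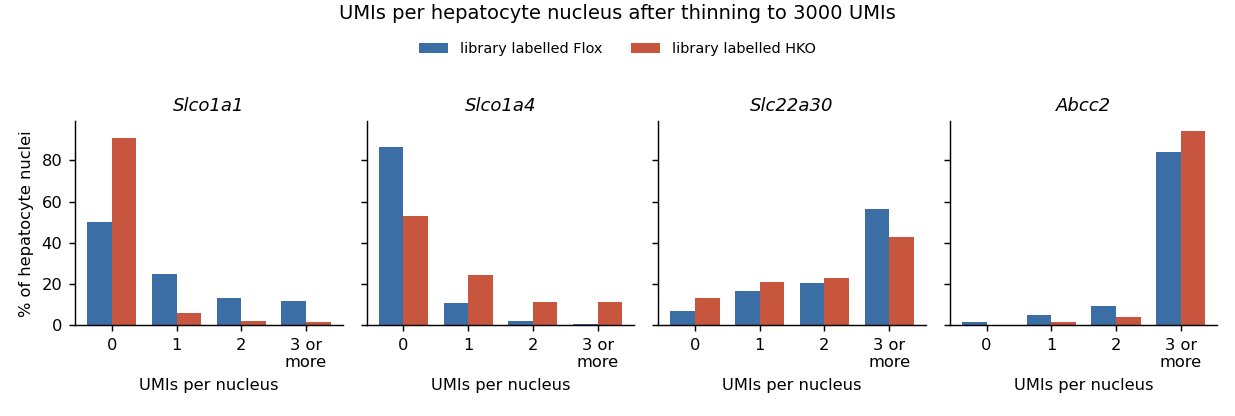
Share of hepatocyte nuclei (%) with 0, 1, 2 or at least 3 UMIs of *Slco1a1*, *Slco1a4*, *Slc22a30* and *Abcc2* after thinning each nucleus to 3000 UMIs, for the library labelled Flox (blue) and that labelled HKO (red). *Slco1a1* was found in 49.7% and 9.14% of nuclei and *Slco1a4* in 13.7% and 47.0%, while *Abcc2* was in nearly all.

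Outside hepatocytes, nuclei were told apart by marker UMIs, and types with at least 50 nuclei in each library were used: endothelial cells (653 and 1156 nuclei), hepatic stellate cells (HSCs; 754 and 1080), macrophages (497 and 1126), cholangiocytes (52 and 317) and T cells (55 and 91). The level that free hepatocyte RNA would give was taken from the share of hepatocyte marker UMIs in each type, 9.81% to 20.0% of that in hepatocytes. *Slco1a1*, *Slco1a4*, *Slc22a27*, *Slc22a28*, *Slc22a30* and *Abcc2* were at or below this level, within counting error, in each of the 5 types of both libraries, with nuclei that carried markers of a further type left out. *Abcc2*, for example, had 19.9 and 54.1 CPM in endothelial nuclei, where free RNA would give 259 and 302 CPM, so that this level lay well above what was measured. With the left-out nuclei kept, *Abcc2* stood at 548.5 and 366.5 CPM in endothelial nuclei. The 3 other genes, *Slco2b1*, *Abcc3* and *Abcc4*, were above the level that free hepatocyte RNA would give in some types of both libraries. Where that level overshot, as for *Abcc2*, a low level of a gene's own could not be detected.

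*Slco2b1* was highest in HSCs, with 159 CPM (139 to 181) and 93.9 CPM (79.8 to 110), where free RNA would give 7.78 and 6.77 CPM. These levels were 2.51 and 1.36 times those in hepatocyte nuclei. Endothelial nuclei had 43.9 and 20.7 CPM, and macrophages 4.40 and 16.2 CPM, the first of which was not above free RNA. The ratio between the libraries was 0.592 (0.480 to 0.728) in HSCs and 0.471 (0.278 to 0.787) in endothelial nuclei, both below 1, and 3.69 (1.41 to 12.2) in macrophages from 5 and 28 UMIs. After thinning to 1000 UMIs *Slco2b1* was found in 13.8% and 8.71% of HSC nuclei, against 0% and 1.59% of macrophage nuclei. The 0 of 488 limits the share with a UMI at this depth alone to 0.753% by the exact interval, and the macrophage shares before thinning were 1.01% and 2.22%. Median depths were 1794 and 1438 UMIs in HSCs and 2116 and 1400 UMIs in macrophages.

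*Abcc3* was highest in macrophages, with 250.1 CPM (222 to 281) and 240 CPM (217 to 264), or 2.00 and 1.44 times the hepatocyte level. The libraries did not differ there beyond counting error (ratio 0.959, 0.823 to 1.12). Cholangiocytes had 79.3 CPM from 8 UMIs and 66.4 CPM from 33 UMIs, where free RNA would give 25.1 and 25.6 CPM. In HSCs *Abcc3* was at 6.93 and 10.1 CPM, below the 15.4 and 16.4 CPM that free RNA would give. After thinning it was found in 21.9% and 20.8% of macrophage nuclei and in 0.810% and 0.425% of HSC nuclei.

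*Abcc4*, unlike the rest, was lower in hepatocytes than in most other types. Endothelial nuclei had 70.1 CPM (54.3 to 89.0) and 49.4 CPM (37.9 to 63.3), macrophages 26.4 and 19.1 CPM, and cholangiocytes 39.7 and 12.1 CPM from 4 and 6 UMIs. T cells had 4 and 3 UMIs. Endothelial nuclei were 228 and 9.33 times the hepatocyte level, and the ratio between the libraries was 0.705 (0.491 to 1.01) in them, against 17.3 in hepatocytes. After thinning to 1000 UMIs it was found in 6.60% and 4.12% of endothelial nuclei, and in 0% and 0.671% of hepatocyte nuclei. The 0 of 5959 limits the share with a UMI at this depth alone to 0.0619% by the exact interval, and the shares before thinning were 0.252% and 3.07%. HSC nuclei, in which *Abcc4* was rare, had it in 0.270% and 0.318%.

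**Figure D4:**
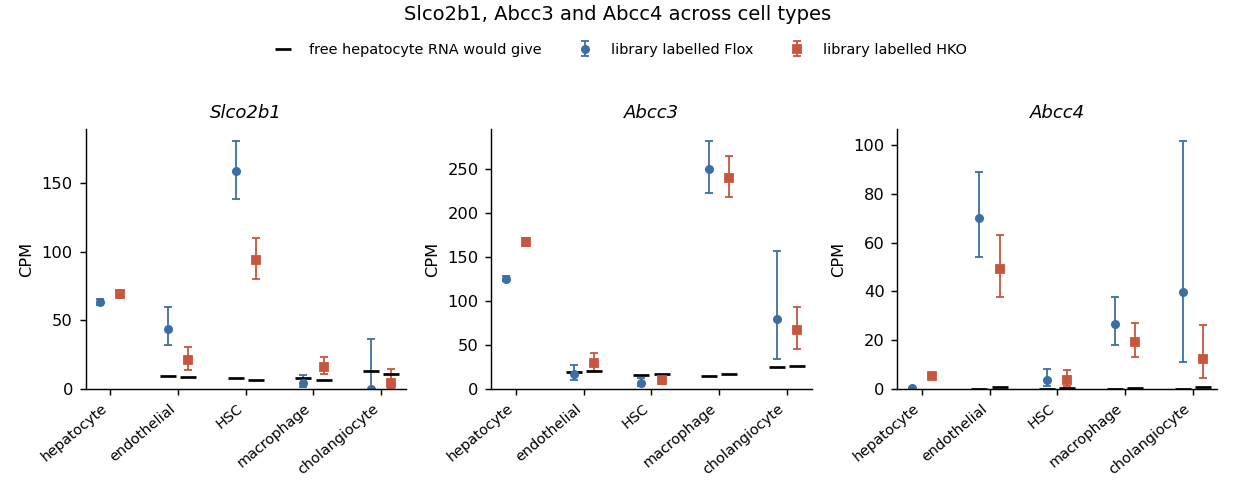
Level of *Slco2b1*, *Abcc3* and *Abcc4* in CPM in hepatocytes and 4 other cell types of the library labelled Flox (blue circles) and that labelled HKO (red squares), with 95% Poisson intervals; black dashes show what free hepatocyte RNA would give. *Slco2b1* is highest in HSCs (159 and 93.9 CPM), *Abcc3* in macrophages (250.1 and 240 CPM) and *Abcc4* in endothelial nuclei (70.1 and 49.4 CPM).

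Beside this list and those that follow stand all 12239 genes, of which 3.37% were past 2-fold higher and 3.41% lower in hepatocyte nuclei. Of 31 other uptake carriers listed, 30 were in the tables and 15 had 100 UMIs in hepatocyte nuclei, with 1 past 2-fold in each direction and a median log2 ratio of 0.06. The higher one was *Slc22a29*, of the same cluster as the members (0.389 and 5.05 CPM, ratio 13.0, 8.02 to 22.2), followed by the ileal-type bile acid carrier *Slc10a2* (36.1 and 52.3 CPM). The lower was *Slc22a7* (OAT2), with 20.3 and 2.08 CPM or 9.73-fold lower, and next to it stood *Slc10a1* (NTCP, the main bile acid uptake carrier; 164 and 107 CPM, ratio 0.655, 0.628 to 0.683). *Slco1b2*, the main hepatic carrier of the *Slco* family, had 2032 and 2625 CPM (1.29, 1.28 to 1.30), and like *Slco1a1* it was pericentral in both libraries (2.11-fold and 1.84-fold). *Slc22a7* had the reverse zonation, with 3.69 CPM in pericentral nuclei and 23.2 CPM in the others of the library labelled Flox.

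Of 21 other efflux transporters 16 had enough UMIs, with 3 past 2-fold higher, 0 lower and a median log2 ratio of 0.18. They were *Abcc5* (4.79 and 18.0 CPM, ratio 3.77, 3.22 to 4.42), *Abcc12* (0.675 and 2.51 CPM) and *Abcb1a* (3.95 and 13.6 CPM), the last named after its value was seen. At the low end were *Abcg2* (201 and 148 CPM) and *Abcg8* (144 and 115 CPM). *Abcb11*, the bile salt export pump, was little different (110.5 and 124 CPM, ratio 1.12, 1.08 to 1.17). Unlike *Abcc4*, *Abcc5* was lower in pericentral than in the other hepatocytes, 7.30 against 19.8 CPM in the library labelled HKO. In pericentral nuclei alone 0 of the 11 efflux transporters with enough UMIs were past 2-fold between the libraries (of all genes 4.23%).

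The transcription factors and receptors known to act on transporter genes had 21 of 23 with enough UMIs, 1 past 2-fold higher and 1 lower. *Onecut1* (HNF6) had 79.9 and 198 CPM (2.47, 2.37 to 2.58) and *Nfe2l2* (NRF2, the factor of the antioxidant response) 266 and 366 CPM. *Nr0b2* (SHP, a repressor of bile acid synthesis) had 65.4 and 30.4 CPM, 2.15-fold lower, and *Bcl6*, a repressor that is higher in male liver, 151 and 88.8 CPM. Of 16 NRF2 targets 14 had enough UMIs, 13 of them with a ratio above 1 and 4 past 2-fold higher: *Gstm3* (1.49 and 6.85 CPM), *Gsta1* (1.08 and 2.93 CPM) and, named after their values were seen, *Gsta2* and *Ugdh*. *Srxn1* (14.9 and 16.6 CPM) and *Osgin1* (82.0 and 57.1 CPM) were at the low end, and the list's median log2 ratio was 0.73. In pericentral nuclei alone 0 of the 9 NRF2 targets with enough UMIs were past 2-fold, and 8 had a ratio above 1. *Abcc2*, *Abcc3* and *Abcc4* are also known as targets of this factor, and its part in their levels here was not tested.

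Targets of the xenobiotic receptors CAR and PXR were divided, with 2 of 14 past 2-fold higher (*Cyp2b9*, 4.79 and 72.2 CPM, and *Cyp2b13*, 0.613 and 7.23 CPM) and 3 lower (*Cyp2c54*, 50.4 and 8.50 CPM, *Cyp2c50*, 191 and 61.2 CPM, and, named after its value was seen, *Cyp3a13*), and a median log2 ratio of -0.36. Of the conjugation enzymes, which supply these pumps, 19 of 21 had enough UMIs, with *Ugt1a9* (4.74 and 10.5 CPM) past 2-fold higher and *Sult2a8* (810 and 152 CPM, 5.33-fold lower) past 2-fold lower. *Sult1d1* (65.7 and 125 CPM) and *Ugt2b37* (5.09 and 2.58 CPM) came next, and the median log2 ratio was -0.15.

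Genes known to be male-biased in mouse liver were lower in the library labelled HKO, 15 of 18 with enough UMIs past 2-fold and 0 higher (median log2 ratio -1.63), as *Slco1a1* was. The lowest ratios were those of *Hsd3b5* (13.1 and 0.0706 CPM, 640 and 2 UMIs) and *Mup7* (216 and 2.12 CPM), and the highest those of *Nudt7* (267 and 185 CPM) and *Mup20* (1641 and 1117 CPM). Of 24 female-biased genes 10 had enough UMIs and 7 were past 2-fold higher, 0 lower (median 1.97), as *Slco1a4* was. At the top were *Cyp2a4* (0.0409 and 21.3 CPM, 2 and 604 UMIs) and *Cyp2b9*. At the bottom were *Acot3* (12.4 and 21.6 CPM) and *Spry4* (29.3 and 26.1 CPM). A gene low in the library labelled Flox reaches 100 UMIs only if it is high in the other, as *Cyp2a4* was. The female-biased counts are therefore partly set by this minimum. Of all 12239 genes 3.37% were past 2-fold higher and 3.41% lower. Among male-biased genes not singled out in earlier results of these data, 10 of 13 were past 2-fold lower. For female-biased genes 5 of 8 were higher. These genes come from the same 2 libraries and passed the same UMI minimum, so that they are no separate check. Nuclei with a Y-linked UMI and no *Xist* UMI gave the same 5 members past 2-fold. They were 5732 of the 5959 and 3949 of the 4170 hepatocyte nuclei, so that the result could hardly differ.

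**Figure D5:**
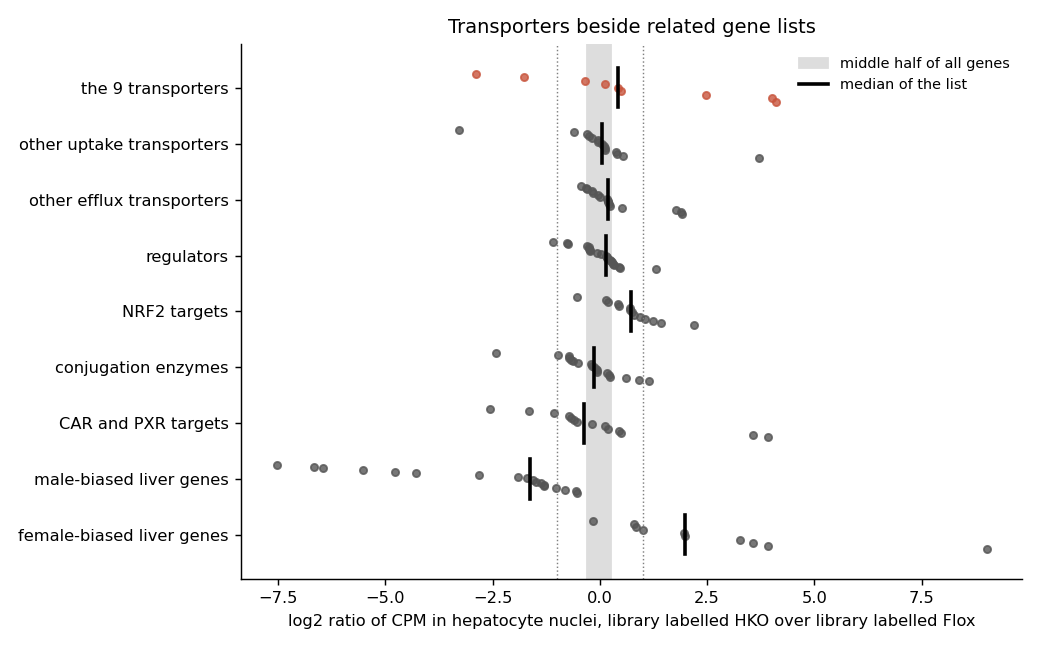
Log2 ratio of CPM in hepatocyte nuclei, library labelled HKO over library labelled Flox, for the 9 transporters (red) and the genes with at least 100 UMIs of 8 related lists (grey points, 1 per gene); the bar is the median of a list, the grey band holds the central quartiles of all genes (-0.31 to 0.25) and dotted lines mark 2-fold. The transporters range from -2.88 (*Slco1a1*) to 4.11 (*Abcc4*).

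Likeness of pattern was measured as Pearson's r of log2(CPM + 1) over 14 points, the 7 cell classes (2 hepatocyte zones and 5 other types) of each library, which share library and depth. *Slco1a1* was most like *Mbl1* (0.956) and *1700055D18Rik* (0.944), *Slco1a4* like *Acot4* and *Insig1* (0.963 each), and *Slco2b1* like *Lrp4* (0.955) and *Akap17b* (0.948). *Slc22a27* was most like *Chrna4* (0.908) and *Rbm24* (0.888), *Slc22a28* like *Mir670hg* (0.963) and *Inca1* (0.962), and *Slc22a30* like *BC024386* (0.988) and *Rcl1* (0.986). For the pumps the nearest were *Cyp3a59* (0.987) and *Sema5b* (0.983) for *Abcc2*, *Wwp1* (0.935) and *Vps9d1* (0.930) for *Abcc3*, and *St3gal6* (0.901) and *Snrnp48* (0.889) for *Abcc4*. Among the members themselves the highest r was that of *Slc22a30* with *Abcc2* (0.970), whereas *Slco1a1* and *Slco1a4* had 0.599 and *Abcc4* was below 0 with each of the other 8.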

How the data were processed

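Both libraries were deposited as raw counts, 1 matrix of UMIs (genes by barcodes) each. The authors used Cell Ranger 8.0.1 and the mm10 reference of build GRCm38, left out intronic reads and did not normalize the values.

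Nuclei with at least 300 genes were kept. Hepatocytes needed 3000 UMIs and 0.5% from hepatocyte markers. Another type needed 3 marker UMIs from at least 2 markers, 0.2% of UMIs, and at most 0.25 times as many from the next type. Nuclei with hepatocyte UMIs and markers of a further type (at least 3 UMIs and 0.05%) were left out as possible doublets (758 and 801), and no doublet caller was run. Hepatocytes under 3000 UMIs (254 and 669) and nuclei of no class (314 and 1235) were not used. These limits were set after the data had been seen. UMIs were summed per class and library and divided by all UMIs. Intervals at 95% are exact Poisson for CPM, exact conditional binomial for ratios and Clopper-Pearson for shares. Past 2-fold required 100 UMIs over both sums. Python 3.11.15, NumPy 2.4.6, SciPy 1.17.1 and matplotlib 3.10.9 were used. The 2-fold call and the ratio intervals were tested on simulated Poisson counts of summed genes, which hold no spread between nuclei beyond counting error.

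The members and gene lists were chosen with earlier results of these data known. Named were all members, the 2 highest and 2 lowest ratios of each list, *Slco1b2*, *Slc10a1* and *Abcb11*, the 2 genes most like each member, and *Themis*, *Xist* and Y-linked genes. Gene positions are from GENCODE vM21. Alternatives changed the depth and zone limits, the scaling, thinning and the UMI minimum.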

Additional observations from a re-analysis of the deposited data

Results flagged for a closer look

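The ratio of *Slco2b1* between the libraries pointed one way in hepatocyte nuclei (1.09) and the opposite way in 2 other cell types, 0.471 in endothelial nuclei (42 and 26 UMIs) and 0.592 in HSC nuclei (229 and 158 UMIs). With 1 library per genotype the difference between cell types was not tested. Antisense genes overlap exons of *Slco2b1*, and their part in these counts was not tested.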

How the results depend on the processing

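Of 56 counts of genes past 2-fold recomputed under alternatives, 55 stayed within 1.5 times the reported count. The exception was the number of members past 2-fold between zones in the library labelled Flox, which went from 1 to 2 (*Slc22a27* joining *Slc22a28*) with no UMI minimum and a pseudocount of 1 CPM. Of 432 recomputed log2 ratios of members, 403 stayed within their counting interval, 29 moved and 0 of those called past 2-fold changed sign. In hepatocyte nuclei *Abcc4* ranged from 2.27 to 4.48 (4.11 as reported) and *Slc22a27* from 3.13 to 4.03, the lowest with the pseudocount, while *Slco1a1* stayed between -2.99 and -2.73 and *Slco1a4* between 2.38 and 2.52. *Slc22a28* was under 2-fold between zones in the library labelled HKO at a depth of 5000 UMIs (log2 0.88). Keeping nuclei with markers of a further type moved 31 of 90 levels outside hepatocytes, among them *Abcc2* in endothelial nuclei. Thinning left *Abcc4* under the UMI minimum. No paired analysis was possible because each genotype had 1 library. Depth limits *Abcc4* and *Slc22a27* in the library labelled Flox (15 and 52 UMIs), and no interval here covers differences between mice or preparations.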
